A study of Mus musculus with 16 samples.

Results

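The T1 to T2 step of splenic B-cell maturation was measured by RNA-Seq in 8 libraries, 4 of T2 and 4 of T1 B-cells, out of 16 in the series. The T2 libraries came from Mir146a-/- (KO) and wild-type (WT) mice with 2 replicates per genotype, and the T1 libraries were made up in the same way. The KO is a germline deletion on C57BL/6, so every cell of the animal carries it and the T1 cells carry it as well as the T2 cells. Both stages were sorted from spleen as AA4+ (CD93+) cells with high IgM, T2 as CD23+ with low CD21 and T1 as CD23- with absent or low CD21. Each sort pooled the spleens of several mice, and no age is stated for the sorted mice. The WT mice were purchased, the KO mice were generated as in earlier work, and no littermates are stated. Genotype and origin of the mice therefore cannot be told apart. Genotypes were pooled by setting the 4 T2 against the 4 T1 libraries on the log2(RPKM + 0.5) scale with genotype as a covariate, where RPKM is reads scaled to gene length and to library size. In all, 11504 genes with a mean RPKM over 1 in either stage were tested. Where 4 values of a stage are listed, they are in the order KO replicate 1, KO replicate 2, WT replicate 1 and WT replicate 2. Where a call was lost without named libraries, these were left out 1 at a time, and library 1 or 2 is the replicate of that number.

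Transitional B-cells are the youngest B-cells in the spleen. T1 cells have just left the bone marrow, carry a newly assembled antigen receptor and are deleted readily when it meets self antigen. T2 cells have entered the B-cell follicle, depend on BAFF and on tonic signals of the receptor for survival, and give rise to follicular (FO) and marginal zone (MZ) B-cells. The step between them is defined at the cell surface by the gain of CD23 and CD21, while CD93 is kept until the mature stages.

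The CD23 and CD21 genes followed their gates, which is a check of the labels and not a result. Fcer2a (CD23) had 604, 690.0, 614 and 712 RPKM in T2 against 30.4, 56.4, 30.2 and 47.7 RPKM in T1, and Cr2 (CD21) had 157, 170.4, 140.3 and 155 RPKM in T2 against 24.2, 29.4, 19.3 and 28.4 RPKM in T1. Cd93 had 13.3, 6.66, 15.4 and 10.9 RPKM in T2 against 36.4, 26.6, 29.3 and 35.4 RPKM in T1, so T2 libraries still held it but at a lower level than each T1 library, though both stages were gated as AA4+. Ighm, whose protein was gated as high in both stages, was also called lower in T2 and is described with the immunoglobulin genes. Ptprc, whose B220 form marks all B-cells, had 371 to 427 RPKM in T2 against 276 to 345 RPKM in T1, and its difference of 0.38 ± 0.11 was not called (adjusted p = 0.0535, limma). The targeted gene Mir146 was listed at 0 RPKM in all 8 T2 and T1 libraries of both genotypes, so the genotype labels could not be checked with it.

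The 8 libraries were scaled to 9003343 to 14443131 reads. Replicates of a group had Spearman correlations of 0.957 to 0.975 across genes. The T1 libraries of replicate 2 stood apart from those of replicate 1 in both genotypes. Immunoglobulin genes held 9.10% to 9.96% of the summed RPKM in the 4 T2 libraries, 40.8% in KO and 36.9% in WT T1 replicate 2, and 23.7% in KO and 16.3% in WT T1 replicate 1. Because these were bulk samples, fewer cells of a type and less RNA per cell cannot be told apart in any value below.

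Of the 11504 genes, 241 were called higher in T2 (2.09% of those tested) and 331 were called lower in T2 (2.88%), at an adjusted p under 0.05 with a ratio over 2. Of the genes called lower, 117 were immunoglobulin or T cell receptor genes, 69 of them heavy chain and 44 kappa chain variable segments, and 214 were other genes. Among the genes called higher there was 1 such segment. The 4 T2 libraries lay above the 4 T1 libraries for 1927 genes (16.8% of those tested) and below them for 1172 genes (10.2%). Counts of list members below are to be read beside these shares and those of the called genes. The lists were chosen with earlier results of these data known, so a count above these shares is a description and not a test. Libraries of the 2 stages did not overlap for 231 of the 241 higher and 318 of the 331 lower genes. The median difference over all tested genes was 0.08 on the log2 scale, and the median standard error was 0.127. With both T1 replicate 2 libraries left out, 216 of the 241 and 257 of the 331 genes were still called, and with both T1 replicate 1 libraries left out these numbers were 163 and 249.

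**Figure D1:**
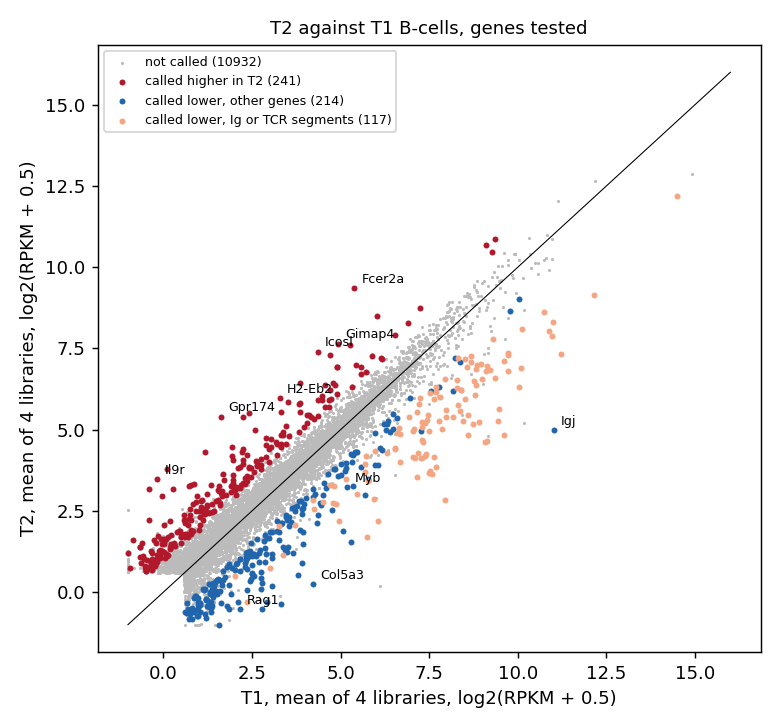
Mean level of the 4 T2 libraries (vertical axis) against that of the 4 T1 libraries (horizontal axis), both as log2(RPKM + 0.5), for the 11504 tested genes (points), with called genes coloured and 10 genes labelled. The 241 genes called higher lie above the diagonal and the 331 called lower lie below it, among them 117 immunoglobulin or T cell receptor genes.

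The 12 largest rises at T2 by the naming rule were of genes with different roles, and all had T2 libraries wholly above T1. Gpr174, which encodes a G protein-coupled receptor for lysophosphatidylserine, had 38.6, 43.7, 39.7 and 44.7 RPKM in T2 against 1.64, 3.91, 1.17 and 3.65 RPKM in T1. Its difference of 3.89 ± 0.31 on the log2 scale was the largest rise of a gene that encodes no sort marker (adjusted p = 0.000535, limma, ENSMUSG00000073008, chromosome X from 107255878 to 107296769 on the forward strand of GRCm38). Every T2 library was at least 38.6 RPKM and no T1 library was above 3.91 RPKM. Il9r, the receptor chain for interleukin-9, had 5.97, 13.2, 6.38 and 16.9 RPKM in T2 against 0.127, 0.84, 0.145 and 0.422 RPKM in T1, a difference of 3.59 ± 0.40. Stat4, a transcription factor downstream of interleukin-12 and type I interferon receptors, had 14.4, 25.3, 15.6 and 22.8 RPKM in T2 against 1.17, 2.4, 1.01 and 2.4 RPKM in T1, a difference of 3.18 ± 0.29. For both genes the replicate 2 libraries were above the replicate 1 libraries within each stage and genotype, yet the stages did not overlap.

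Pglyrp2, an amidase that cleaves bacterial peptidoglycan, had 10.6, 18.2, 9.08 and 16 RPKM in T2 against 0.4, 0.928, 0.249 and 0.675 RPKM in T1 (3.71 ± 0.27). Plaur, the urokinase receptor, had 24.7, 67.1, 29.8 and 44.3 RPKM in T2 against 2.37, 7.24, 2.51 and 4.89 RPKM in T1 (3.16 ± 0.41). Rapgef4, a Rap exchange factor that responds to cyclic AMP, had 6.08, 8.31, 6.77 and 8.11 RPKM in T2 against 0.201, 0.736, 0.382 and 0.571 RPKM in T1 (3.03 ± 0.21). Fam101b, which encodes an actin-binding refilin, rose by 3.55 ± 0.26 and Crisp3, a cysteine-rich secreted protein, by 2.87 ± 0.19. Crisp3 had 5.70 and 7.68 RPKM in KO T2 against 10.3 and 10.7 RPKM in WT T2, while KO and WT overlapped in T2 for the other rises named so far. The difference of the T2 against T1 change between genotypes was not called for any gene, as given below.

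The largest falls at T2 were of 2 kinds in the libraries. Col5a3, a collagen V chain, had 0.501, 0.449, 0.636 and 1.14 RPKM in T2 against 25.1, 13, 22.4 and 12.3 RPKM in T1 (-3.95 ± 0.28, adjusted p = 0.000361, limma, ENSMUSG00000004098, chromosome 9 from 20770050 to 20815067 on the reverse strand). Rapgefl1, a relative of the Rap exchange factors, had 1.04, 0.401, 1.1 and 1.19 RPKM in T2 against 17.3, 10.1, 15.7 and 10.4 RPKM in T1 (-3.28 ± 0.25). Gas7, a cytoskeletal adaptor, had 0.235, 0.295, 0.274 and 0.466 RPKM in T2 against 9.94, 4.91, 8.38 and 5.24 RPKM in T1 (-3.17 ± 0.25). In these 3 genes the T1 replicate 1 libraries were the highest in both genotypes. Islr2, a leucine-rich repeat membrane protein, fell by 2.62 ± 0.19, with 0.388 to 0.774 RPKM in T2 against 4.48 to 9.32 RPKM in T1.

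The other kind had its highest T1 values in replicate 2. Igj, the joining chain of polymeric immunoglobulin, had 21.2, 28.1, 38.5 and 36.3 RPKM in T2 against 1148, 3876, 428 and 2799 RPKM in T1 and the largest fall of all tested genes (-5.63 ± 0.65, adjusted p = 0.00174, limma, ENSMUSG00000067149, chromosome 5 from 88519809 to 88527891 on the reverse strand). Chst1, a carbohydrate sulfotransferase, had 0.0621, 0.239, 0.332 and 0.137 RPKM in T2 against 3.77, 13.7, 0.863 and 7.03 RPKM in T1 (-2.87 ± 0.62). Prg2, the major basic protein of eosinophil granules, had 0.199, 0.34, 8.62 and 0.613 RPKM in T2 against 11.3, 53, 9.7 and 81.3 RPKM in T1 (-4.11 ± 0.92). Its T2 library of WT replicate 1 was near the 2 T1 replicate 1 libraries and far above the other T2 libraries. With 1 library left out the call was lost for Chst1 without KO T2 library 1 or 2 or WT T2 library 2 (-2.94 to -2.64) and for Prg2 without KO T2 library 1 or 2, WT T2 library 2 or WT T1 library 2 (-3.98 to -3.69). Without the T1 replicate 2 libraries the differences were -4.51 for Igj (adjusted p = 0.00433, limma), -1.82 for Chst1 and -2.81 for Prg2, the last 2 not called.

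**Figure D2:**
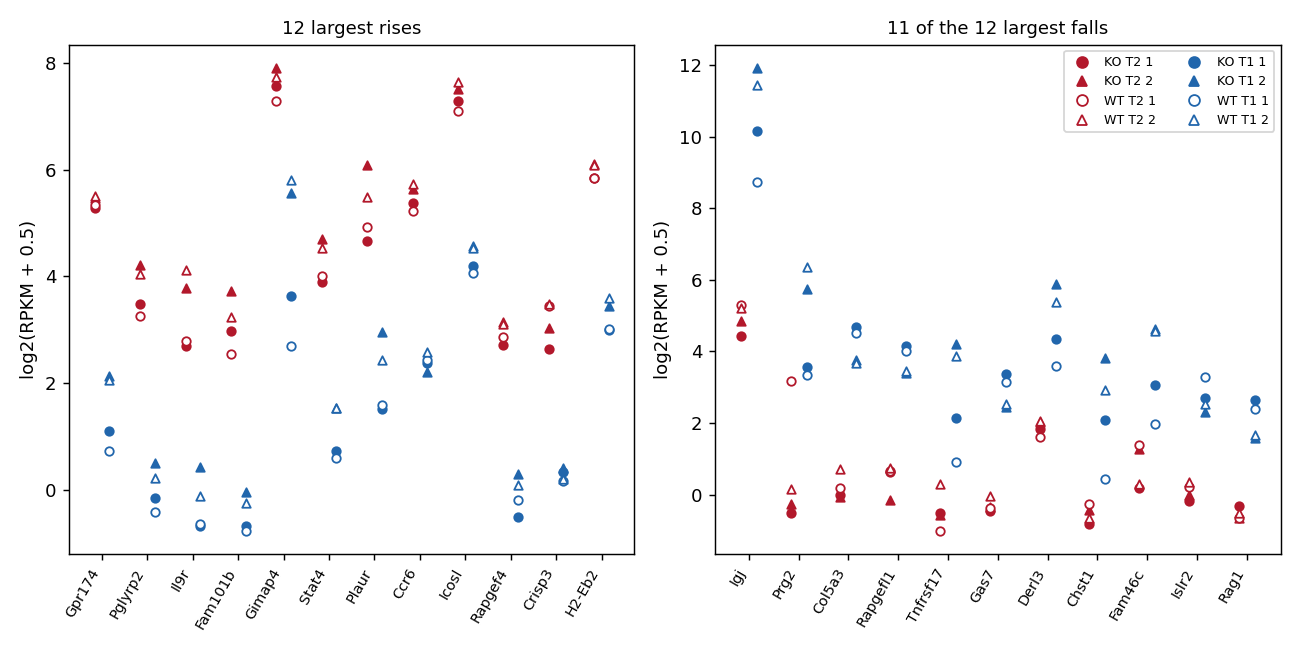
Level of the 12 largest rises and 11 of the 12 largest falls in each of the 8 libraries (points) as log2(RPKM + 0.5), T2 left of T1, with filled points for KO, open points for WT and a marker shape per replicate. The 12 rises have no overlap between stages, and among the falls Igj, Tnfrsf17, Derl3, Chst1 and Fam46c are highest in the T1 replicate 2 libraries while Col5a3, Rapgefl1, Gas7 and Rag1 are highest in T1 replicate 1.

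Some receptors of cell migration rose at T2. Of 16 tested homing and chemoattractant receptor genes, 5 were called higher (among them Gpr174, Ccr6, Gpr183 and Gpr132) and 1 lower (S1pr3), against 2.09% and 2.88% of all tested genes, and their median difference was 0.57. Ccr6, the receptor for the chemokine CCL20, had 41.2, 49.5, 37 and 52.2 RPKM in T2 against 4.72, 4.1, 4.91 and 5.5 RPKM in T1, a difference of 3.09 ± 0.13 (adjusted p = 6.77e-05, limma, ENSMUSG00000040899, chromosome 17 from 8236043 to 8257141 on the forward strand). Gpr183, the oxysterol receptor that places B-cells in the outer follicle, had 32.8, 58.8, 46 and 48.9 RPKM in T2 against 6.88, 10.4, 11.2 and 9.31 RPKM in T1 (2.24 ± 0.20). The T1 values of Ccr6 lay within 4.10 to 5.50 RPKM.

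Gpr132, a lipid-sensing receptor, had 35 to 50.5 RPKM in T2 against 9.84 to 20.5 RPKM in T1 (1.43 ± 0.22). Cxcr5, the receptor for the follicular chemokine CXCL13, was already present in T1, with 144, 153, 130.2 and 129.9 RPKM in T2 against 84.1, 79, 93.9 and 82.7 RPKM in T1, and its difference of 0.71 ± 0.09 passed the adjusted p (0.00268, limma) but not the ratio of 2. P2ry10 (0.72) and Gpr18 (0.54) likewise had every T2 library above every T1 library without reaching that ratio. The receptor that fell was S1pr3, a sphingosine-1-phosphate receptor that is abundant in MZ B-cells, with 2.69, 2.11, 3.05 and 2.28 RPKM in T2 against 11, 7.43, 10.4 and 7.83 RPKM in T1 (-1.66 ± 0.16, adjusted p = 0.000956, limma). Among 22 integrin and adhesion genes 1 was called higher and 0 lower (2.09% and 2.88% over all genes). This was Itgb7, the beta7 chain that pairs with alpha4 to bind gut addressins. It had 67.6, 103, 63.6 and 96 RPKM in T2 against 16.7, 28, 17.8 and 29 RPKM in T1 (1.84 ± 0.24).

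Several genes of MHC class II antigen presentation rose together. Of 14 tested members 6 were called higher and 0 lower (2.09% and 2.88% over all genes), 11 had every T2 library above every T1 library (16.8%), and the median difference was 0.92. H2-Aa, the alpha chain of I-A, had 1333, 1972, 1511 and 1807 RPKM in T2 against 429, 576, 577 and 626 RPKM in T1 (1.58 ± 0.19, adjusted p = 0.00183, limma). H2-Ab1, its beta chain, had 1104, 1699, 1285 and 1579 RPKM in T2 against 455, 623, 762 and 637 RPKM in T1 (1.2 ± 0.20), and H2-Eb1, the I-E beta chain, rose by 1.51 ± 0.20. The largest relative change was in H2-Eb2, a further E beta gene, with 56.8, 68.1, 56.9 and 67.2 RPKM in T2 against 7.5, 10.4, 7.58 and 11.6 RPKM in T1 (2.70 ± 0.16). Ciita, the coactivator that switches on class II promoters, had 97.9, 111, 90.2 and 122 RPKM in T2 against 43.8, 44.1, 49.7 and 51 RPKM in T1 (1.14 ± 0.11) and no overlap between stages.

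The peptide loading genes had smaller differences. H2-DMb1, a chain of the DM peptide exchanger, had 125 to 167 RPKM in T2 against 63.2 to 82.2 RPKM in T1 (1.02 ± 0.13), and the T2 and T1 libraries of H2-DMb2 (0.82), H2-DMa (0.71), H2-Oa (0.97) and H2-Ob (0.87) did not overlap either, with differences below 1. H2-DMb1 and H2-DMb2 are close copies between which unique alignment may split reads, so each of their values is uncertain. Ctss, the protease cathepsin S that trims the invariant chain, differed by 0.59 ± 0.11, again with no overlap. The invariant chain gene Cd74 had 5473 to 7360.4 RPKM in T2 against 4012 to 5585 RPKM in T1 and a difference of 0.48 ± 0.28 that did not pass the test (adjusted p = 0.274, limma), and Rfx5, a subunit of the factor bound to class II promoters, differed by 0.20 ± 0.10. Ifi30, a lysosomal thiol reductase of antigen processing, went the other way, with 398, 306, 350.3 and 325 RPKM in T2 against 672, 542, 777 and 560.5 RPKM in T1 (-0.88 ± 0.16), a difference that passed the adjusted p but not the ratio of 2. The list count was 5 with median-ratio scaling and 9 with quantile normalization, and the call on H2-DMb1 was lost without KO T2 library 2, WT T2 library 2, KO T1 library 2 or WT T1 library 2 (0.91 to 1.00).

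Class II promoters are known for a conserved module that ends in a Y box, an inverted CCAAT motif bound by NF-Y, close to the transcription start. The letters GATTGG or, on the other strand, CCAATC, were searched in the RefSeq promoter windows of GRCm38.p6 that run from 250 bases before to 50 bases after a start. Of the 14 class II members 11 had a promoter there, and 9 of these held a match in at least 1 promoter, against 18.2% of all 27025 genes in the table counted in the same way (16.1% of its 32851 promoters). The windows below run from 140 to 21 bases before the start, and capitals mark the match. They are shown for each member whose T2 libraries lay wholly above T1 and that holds the motif within this window.
H2-Aa, chr17:34287844-34287963, reverse strand: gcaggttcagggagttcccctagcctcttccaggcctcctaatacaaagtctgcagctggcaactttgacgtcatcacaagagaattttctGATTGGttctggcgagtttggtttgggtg
H2-Eb1, chr17:34305727-34305846, forward strand: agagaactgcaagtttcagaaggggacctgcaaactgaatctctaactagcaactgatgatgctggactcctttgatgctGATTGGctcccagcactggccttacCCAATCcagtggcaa
H2-Eb2, chr17:34325535-34325654, forward strand: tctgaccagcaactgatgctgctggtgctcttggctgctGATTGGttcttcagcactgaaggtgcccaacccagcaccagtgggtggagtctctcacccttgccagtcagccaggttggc
H2-DMb1, chr17:34153051-34153170, forward strand: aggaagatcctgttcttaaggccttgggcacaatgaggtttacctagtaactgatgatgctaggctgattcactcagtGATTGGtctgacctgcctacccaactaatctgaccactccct
H2-DMb2, chr17:34145109-34145228, forward strand: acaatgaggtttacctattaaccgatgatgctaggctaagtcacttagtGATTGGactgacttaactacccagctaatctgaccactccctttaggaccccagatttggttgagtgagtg
H2-Oa, chr17:34092239-34092358, forward strand: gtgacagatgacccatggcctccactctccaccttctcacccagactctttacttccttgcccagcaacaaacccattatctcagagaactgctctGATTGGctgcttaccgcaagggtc
H2-Ob, chr17:34238765-34238884, forward strand: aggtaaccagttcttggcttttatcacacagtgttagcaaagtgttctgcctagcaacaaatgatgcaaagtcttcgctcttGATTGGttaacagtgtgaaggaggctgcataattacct
The match began 49 bases before the start in H2-Aa, 60 and 35 in H2-Eb1, 101 in H2-Eb2, 62 in H2-DMb1, 91 in H2-DMb2, 44 in H2-Oa and 58 in H2-Ob. H2-Aa, H2-Eb1, H2-Eb2 and H2-DMb1 were called higher, and H2-DMb2 (0.82), H2-Oa (0.97) and H2-Ob (0.87) were not. Rfx5 held matches too (113 and 54 bases before the start) with a difference of 0.20, and Ctss and Ifi30 held none in their windows. H2-DMa held a match 199 bases before the start in 1 promoter, outside the windows shown, and none in another. The members without a promoter there were H2-Ab1, Ciita and Cd74. A match of these letters is a description of the sequence, and binding was not measured.

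Some ligands and receptors through which B-cells engage T-cells rose as well. Of 17 tested costimulatory and checkpoint genes 4 were called higher (Icosl, Pdcd1lg2, Cd83 and Slamf1) and 0 lower (2.09% and 2.88% over all genes), 10 had all T2 above all T1 libraries (16.8%), and the median difference was 0.41. Icosl, the ligand of ICOS on T-cells, had 155, 183, 137 and 198 RPKM in T2 against 17.7, 23.4, 16.3 and 22.6 RPKM in T1, a difference of 3.04 ± 0.16 (adjusted p = 0.000125, limma, ENSMUSG00000000732, chromosome 10 from 78069302 to 78083913 on the forward strand). Cd83, which protects class II and CD86 from degradation at the surface, had 114, 126, 135 and 113 RPKM in T2 against 37.6, 54.1, 50.6 and 47.7 RPKM in T1 (1.36 ± 0.12). Slamf1, a self-binding receptor of lymphocytes, had 24.9, 22.9, 21.4 and 22.7 RPKM in T2 against 10.4, 10.5, 10.2 and 10.7 RPKM in T1 (1.1 ± 0.07), with T1 values that differed by less than 1 RPKM. Pdcd1lg2, which encodes the PD-1 ligand PD-L2, had 5.87, 7.35, 4.39 and 6.47 RPKM in T2 against 0.272, 0.968, 0.485 and 3.45 RPKM in T1 (2.15 ± 0.47), and here the WT T1 replicate 2 library came within 1 RPKM of the lowest T2 library.

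Slamf7 (-0.74 ± 0.22) and Cd80 (-0.74 ± 0.57) had the lowest differences of the list and neither passed the test (adjusted p = 0.0535 and 0.402, limma). Cd80 had 0.44, 0.753, 0.131 and 0.777 RPKM in T2 against 0.526, 2.48, 0.187 and 3 RPKM in T1, high only in the T1 replicate 2 libraries, and without them its difference was 0.23. Without T1 replicate 1 both were called lower, Slamf7 at -1.11 (adjusted p = 0.00585, limma) and Cd80 at -1.71 (adjusted p = 0.0338, limma). The call on Pdcd1lg2 was lost without KO T2 library 1 or 2 or WT T2 library 2 (1.97 to 2.16).

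Some survival genes of the BCL2 family rose at T2 and others did not. Bcl2, which blocks mitochondrial cell death, had 19.9, 19.1, 22.3 and 20.8 RPKM in T2 against 3.77, 10.4, 3.9 and 11.6 RPKM in T1 (1.57 ± 0.36, adjusted p = 0.0226, limma). Its T1 level was near 4 RPKM in the replicate 1 libraries and above 10 RPKM in the replicate 2 libraries. Bcl2a1b, an A1 family member induced by NFkB, had 3.97, 4.88, 4.21 and 5.75 RPKM in T2 against 0.548, 1.86, 0.195 and 1.32 RPKM in T1 (1.96 ± 0.37), and its near-identical copy Bcl2a1d had 3.63 to 5.63 RPKM in T2 against 0.112 to 2.7 RPKM in T1 (1.73 ± 0.51, adjusted p = 0.0539, limma). Unique alignment may split reads between these A1 copies, so each value is uncertain. Bcl2 and Bcl2a1b were the 2 calls among 8 tested survival members (2.09% called higher over all genes). Of these 8, 4 had a difference above 0, the median was 0.18 and the lowest was -0.65. By overlap, 3 lay wholly above T1 and 1 wholly below (16.8% and 10.2% over all genes). The summed level of the 10 listed survival members was 558, 427, 552 and 452 RPKM in T2 against 587, 549, 613 and 597 RPKM in T1. Of 8 death members of the family 0 were called. The call on Bcl2 was lost without KO T2 library 1 or 2 or WT T2 library 1 or 2 (1.55 to 1.59), and without the T1 replicate 1 libraries its difference was 0.87.

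Receptors for BAFF and CD40 and their signalling genes gave 1 call in each direction among 13 tested (2.09% higher and 2.88% lower over all genes). Of these 13, 7 had all T2 above all T1 libraries (16.8% over all genes). Traf1, an adaptor induced by NFkB, had 3.64, 7.72, 3.65 and 6.79 RPKM in T2 against 1.1, 2.95, 0.663 and 2.04 RPKM in T1 (1.50 ± 0.38), and Tnfrsf17, the BCMA receptor of plasma cells, is described with the plasma cell genes. Birc3, an inhibitor of apoptosis in the same pathway, had 86 to 111 RPKM in T2 against 59.96 to 80.1 RPKM in T1 (0.50 ± 0.09), and Tnfrsf13b, the TACI receptor, had 106 to 132 RPKM in T2 against 132 to 173 RPKM in T1 (-0.36 ± 0.11), so both lay apart between stages with ratios below 2. None of 13 canonical NFkB subunits and inhibitors was called by limma, though 4 lay wholly above T1, beside the same 16.8% over all genes. The call on Traf1 was lost without KO T2 library 2, WT T2 library 1 or 2, KO T1 library 1 or WT T1 library 1 (1.24 to 1.62).

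Among 25 tested genes of B-cell receptor signalling 1 was called higher and 0 lower (2.09% and 2.88% over all genes). This was Rasgrp3, a Ras exchange factor that diacylglycerol activates downstream of the receptor. It had 74.2, 72, 70.8 and 78.4 RPKM in T2 against 23.7, 26.3, 23.6 and 27.7 RPKM in T1, a difference of 1.53 ± 0.08 (adjusted p = 0.000125, limma, ENSMUSG00000071042, chromosome 17 from 75435896 to 75529054 on the forward strand). The related Rasgrp1 went the opposite way, with 76.3, 56.5, 76.6 and 66.5 RPKM in T2 against 125, 91.7, 124 and 99.3 RPKM in T1 (-0.67 ± 0.14), which passed the adjusted p but not the ratio of 2. The kinase genes were split as well, with Fyn at 13.8 to 19.2 RPKM in T2 against 7.25 to 10.1 RPKM in T1 (0.88 ± 0.14) and Lyn at 111 to 134 RPKM in T2 against 149 to 224 RPKM in T1 (-0.57 ± 0.16). Over the 25 genes, 7 lay wholly above and 8 wholly below T1 (16.8% and 10.2% over all genes), and the median was -0.11. None of 16 inhibitory coreceptor and phosphatase genes was called, with 4 wholly above and 6 wholly below T1, beside the same 16.8% and 10.2%.

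Of 30 tested transcription factor genes of the B lineage, 2 were called higher (Nfatc2 and Runx3) and 4 lower (Spib, Zeb2, Prdm1 and Xbp1), against 2.09% and 2.88% of all tested genes. A further count by overlap had 4 wholly above T1 (16.8% over all genes) and 8 wholly below (10.2%), and the median was -0.09. Without T1 replicate 1 the calls were 1 higher and 2 lower. Spib, an Ets factor of B-cells, had 489, 359.7, 386 and 376 RPKM in T2 against 1096, 746, 929.6 and 771 RPKM in T1 (-1.13 ± 0.17). Zeb2, a zinc finger repressor, had 5.75, 3.76, 6.47 and 4.4 RPKM in T2 against 14.5, 9.57, 15.8 and 10.4 RPKM in T1 (-1.22 ± 0.21). Runx3 had 13.6, 17.6, 14.2 and 17.1 RPKM in T2 against 6.39, 7.57, 7.79 and 7.63 RPKM in T1 (1.04 ± 0.11), and Nfatc2, a factor that calcium signals move to the nucleus, had 1.85, 3.88, 1.46 and 3.22 RPKM in T2 against 0.203, 0.949, 0.234 and 0.822 RPKM in T1 (1.56 ± 0.37).

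Bcl6, the repressor of the germinal center programme, had 21.6 to 25.6 RPKM in T2 against 10.9 to 16.8 RPKM in T1 (0.82 ± 0.15) and Mef2c, which supports survival after receptor signals, had 88.1 to 103 RPKM in T2 against 54.6 to 67.9 RPKM in T1 (0.69 ± 0.10). Both passed the adjusted p with no overlap and with a ratio below 2, and they were chosen after their values were seen. With 1 library left out calls were lost for Nfatc2 without KO T2 library 2, WT T2 library 2, KO T1 library 1 or WT T1 library 1 (1.33 to 1.41) and for Runx3 without KO T2 library 2, WT T2 library 2 or KO T1 library 1 (0.95 to 1.00). Myc, a driver of growth, had 34.9, 79, 58.4 and 68.4 RPKM in T2 against 8.6, 29.7, 17.5 and 31.2 RPKM in T1 (1.55 ± 0.41, adjusted p = 0.037, limma). This was the only call among 17 tested genes of D cyclins, the Myc network and cell cycle inhibitors (2.09% called higher over all genes). It was lost without KO T2 library 2, WT T2 library 1 or 2, KO T1 library 1 or WT T1 library 1 (1.18 to 1.62). Of 35 cell cycle and DNA replication genes 1 was called lower and 0 higher (2.88% and 2.09% over all genes). This was E2f2, an activator of replication genes, with 34.8, 25.1, 30.9 and 26.3 RPKM in T2 against 73.4, 57.6, 62.8 and 57 RPKM in T1 (-1.09 ± 0.13). Its call was lost without KO T2 library 2 (-0.99). The T1 libraries used turned the direction of that list. Without T1 replicate 2 it had 2 members called higher and 1 lower with a median of 0.67, and without T1 replicate 1 it had 0 called higher and 13 lower with a median of -0.96, against -0.23 with all 8 libraries.

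Cytokine receptor genes gave 1 higher call (Il9r, above) and 2 lower calls among 23 tested (2.09% and 2.88% over all genes), and 8 lay wholly above T1 (16.8%). Csf2rb, the shared chain of the receptors for GM-CSF and interleukin-3, had 5.36, 4.82, 5.76 and 5.39 RPKM in T2 against 11.9, 14.5, 12 and 19.7 RPKM in T1 (-1.34 ± 0.15). Il2ra, the alpha chain of the interleukin-2 receptor, had 2.58, 1.75, 2.31 and 1.14 RPKM in T2 against 8.55, 4.71, 6.94 and 4.42 RPKM in T1 (-1.44 ± 0.26). Il6ra, the interleukin-6 receptor, had 5.43 to 9.02 RPKM in T2 against 2.14 to 5.3 RPKM in T1 (0.97 ± 0.28, adjusted p = 0.0496, limma), just short of a ratio of 2. Of 18 Toll-like receptor and chaperone genes, 5 lay wholly above T1 and 5 wholly below (16.8% and 10.2% over all genes), and 1 was called higher (2.09%). This was Tlr3, the sensor of double-stranded RNA, at 1.16, 1.29, 1.09 and 1.62 RPKM in T2 against 0.428, 0.425, 0.417 and 0.0491 RPKM in T1 (1.13 ± 0.26). Tlr1, a partner of TLR2, had 100.2 to 118 RPKM in T2 against 44.8 to 59.6 RPKM in T1 (0.99 ± 0.11), whereas Tlr9, the sensor of unmethylated CpG DNA, had 41.9 to 55.1 RPKM in T2 against 74.2 to 109 RPKM in T1 (-0.86 ± 0.16). The call on Tlr3, a gene near the low end of detection, was lost without KO T2 library 1 or 2, WT T2 library 1 or 2 or WT T1 library 2 (0.94 to 1.2).

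Notch signals from stromal Delta-like ligands direct T2 cells towards the MZ, and the fringe enzyme LFNG makes NOTCH2 more responsive to those ligands. Lfng had 12.8, 22.5, 12.7 and 16.9 RPKM in T2 against 2.31, 4.16, 3.42 and 3.78 RPKM in T1, a difference of 2.08 ± 0.23 (adjusted p = 0.00147, limma, ENSMUSG00000029570, chromosome 5 from 140607320 to 140615545 on the forward strand). It was the only call among 21 tested Notch pathway genes (2.09% called higher over all genes). Notch2 had 59.1, 72.1, 58.1 and 66.9 RPKM in T2 against 38.2, 35.1, 42.9 and 32.7 RPKM in T1 (0.78 ± 0.11), with T2 wholly above T1, and Notch1 had 1.73, 2.48, 2.15 and 2.6 RPKM in T2 against 3.4, 3.81, 4.23 and 2.92 RPKM in T1 (-0.58 ± 0.16), with T2 wholly below T1. Neither receptor reached a ratio of 2. The median over the 21 genes was -0.07.

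The GIMAP genes, a cluster of GTPases of lymphocytes on mouse chromosome 6 known for roles in lymphocyte survival, rose in part. Of 8 tested, 5 were called higher and 0 lower (2.09% and 2.88% over all genes), 7 lay wholly above T1 (16.8%), and the median difference was 1.37. Gimap4 had 189, 239, 156 and 211 RPKM in T2 against 11.9, 46.4, 5.99 and 55.6 RPKM in T1 (3.20 ± 0.67), and Gimap3 had 202, 220.3, 153 and 198 RPKM in T2 against 28.5, 47.2, 19.4 and 58 RPKM in T1 (2.43 ± 0.32). Both had T1 replicate 2 libraries well above T1 replicate 1. Gimap6 had 262, 336, 292 and 342 RPKM in T2 against 99.7, 122, 116 and 138 RPKM in T1 (1.37 ± 0.13), Gimap8 had 136 to 172 RPKM in T2 against 46.8 to 67.7 RPKM in T1 (1.38 ± 0.13) and Gimap7 had 48.4 to 63 RPKM in T2 against 8.48 to 17.8 RPKM in T1 (2.01 ± 0.19). Gimap1 (0.65 ± 0.10) and Gimap5 (0.81 ± 0.12) lay wholly above T1 at a ratio below 2, and Gimap9 had 79.5, 62.7, 62.3 and 59.4 RPKM in T2 against 69.95, 48.1, 46.5 and 55.3 RPKM in T1, with overlapping stages (adjusted p = 0.203, limma). The call on Gimap4 was lost without WT T2 library 2 (3.10), and the list gave 5 calls both without T1 replicate 1 and without T1 replicate 2.

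Many genes of a list of earlier B-cell development fell at T2. Of 28 listed members 18 had a mean RPKM over 1 in either stage. Of these 10 were called lower (2.88% over all genes) and 0 higher, 13 lay wholly below T1 (10.2%), and the median was -1.02. Rag1, which cuts DNA in antigen receptor gene assembly, had 0.302, 0.14, 0.134 and 0.2 RPKM in T2 against 5.8, 2.53, 4.74 and 2.69 RPKM in T1 (-2.61 ± 0.28, adjusted p = 0.00137, limma, ENSMUSG00000061311, chromosome 2 from 101638282 to 101649501 on the reverse strand). Rag1 was thus low in T1 and at most 0.302 RPKM in T2. Myb, a transcription factor of lymphoid progenitors, had 8.91, 6.59, 10.5 and 9.53 RPKM in T2 against 37.1, 37.7, 33 and 36.5 RPKM in T1 (-1.98 ± 0.13). Akap12, a scaffold for protein kinases A and C, had 16.8, 9.98, 17.6 and 14.3 RPKM in T2 against 76.9, 55.6, 78.1 and 54.6 RPKM in T1 (-2.15 ± 0.20), and Bst1 (CD157), an enzyme and surface antigen of marrow B-cell precursors, fell by 2.08 ± 0.25.

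Vpreb3, which associates with nascent immunoglobulin chains in precursor B-cells, had 143, 135, 126 and 131 RPKM in T2 against 389, 276, 395 and 271 RPKM in T1 (-1.29 ± 0.15). Cd24a, the heat stable antigen that is high on immature B-cells, had 558, 456, 588 and 470.1 RPKM in T2 against 1139, 892, 1220.2 and 933 RPKM in T1 (-1.01 ± 0.16). Atp1b1, a sodium pump subunit, had 16.7 to 23.2 RPKM in T2 against 53.4 to 87.1 RPKM in T1 (-1.77 ± 0.18), Egfl6, a secreted matrix protein, 0.895 to 2.51 RPKM in T2 against 5.56 to 10.9 RPKM in T1 (-1.90 ± 0.29), Sox4, a factor of pro-B-cells, 1.51 to 1.99 RPKM in T2 against 3.46 to 10.4 RPKM in T1 (-1.39 ± 0.29), and Bcl7a 15.5 to 21.6 RPKM in T2 against 30.4 to 45.1 RPKM in T1 (-1.02 ± 0.16). For Rag1, Akap12, Bst1, Egfl6, Atp1b1, Vpreb3, Bcl7a and Cd24a, T1 replicate 1 was above T1 replicate 2 in both genotypes. With 1 library left out calls were lost for Sox4 without WT T2 library 2 (-1.30), for Bcl7a without KO T2 library 2, WT T2 library 2, KO T1 library 1 or WT T1 library 1 (-0.98 to -0.92) and for Cd24a without KO T2 library 2, WT T2 library 2, KO T1 library 1 or WT T1 library 1 (-0.95 to -0.93).

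Plasma cell genes were far lower in T2 than in T1, and most of their T1 signal lay in the replicate 2 libraries. Of 14 tested members 10 were called lower (2.88% over all genes) and 0 higher, 9 lay wholly below T1 (10.2%), and the median was -1.94. Their summed level was 328, 432, 438 and 418 RPKM in T2 against 1665, 4951, 957 and 3768 RPKM in T1. Every T1 library was thus above every T2 library in that sum. The member Igj alone gave 1148, 3876, 428 and 2799 RPKM of the T1 sums, and 21.2, 28.1, 38.5 and 36.3 RPKM of the T2 sums. Derl3, which draws misfolded proteins out of the endoplasmic reticulum, had 3.05, 3.62, 2.58 and 3.63 RPKM in T2 against 19.7, 59.1, 11.5 and 41.3 RPKM in T1 (-2.92 ± 0.45). Tnfrsf17, which encodes BCMA, had 0.204, 0.175, 0 and 0.721 RPKM in T2 against 3.95, 18, 1.37 and 14.3 RPKM in T1 (-3.24 ± 0.72), and Fam46c, a poly(A) polymerase that stabilises immunoglobulin mRNA, had 0.628, 1.93, 2.1 and 0.734 RPKM in T2 against 7.87, 24.3, 3.45 and 23.1 RPKM in T1 (-2.78 ± 0.62). All 3 were highest in the T1 replicate 2 libraries of both genotypes.

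Prdm1, which encodes Blimp-1, a repressor that drives plasma cell formation, had 0.409, 0.816, 0.89 and 0.735 RPKM in T2 against 2.43, 10.3, 2.35 and 10.5 RPKM in T1 (-2.23 ± 0.51). Sdc1 (CD138) had 1.33, 2.58, 1.4 and 2.1 RPKM in T2 against 6.58, 19, 3.68 and 13.9 RPKM in T1 (-2.05 ± 0.46), and Xbp1, a factor of the secretory pathway, 28.9, 36.4, 29.4 and 34.4 RPKM in T2 against 65.8, 133, 43.6 and 111 RPKM in T1 (-1.32 ± 0.32). Eaf2, an elongation factor partner, was the exception among the members, with 2.61, 1.35, 3.3 and 1.98 RPKM in T2 against 14.7, 16.8, 12.6 and 15.7 RPKM in T1 (-2.50 ± 0.22) and T1 replicates within 12.6 to 16.8 RPKM. Slpi, a protease inhibitor, fell by 1.83 ± 0.45 and Txndc5, a disulfide isomerase, by 1.26 ± 0.28, while Mzb1, a chaperone of IgM assembly, had 113, 148, 120.4 and 131 RPKM in T2 against 146, 338, 123 and 354 RPKM in T1 (-0.76 ± 0.36, adjusted p = 0.184, limma). With the T1 replicate 2 libraries left out 5 members were called lower and the median was -1.26, and with T1 replicate 1 left out 12 were called lower and the median was -2.42. The part of plasma cells or plasmablasts in the T1 libraries was not tested.

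With 1 library left out calls on plasma cell genes were lost for Tnfrsf17 without KO T2 library 1 or 2 or WT T2 library 1 (-3.15 to -3.08), for Fam46c without KO T2 library 1 or WT T2 library 2 (-2.63 to -2.49), for Prdm1 without KO T2 library 1 or 2, WT T2 library 1 or 2 or WT T1 library 2 (-2.31 to -1.87), for Xbp1 without KO T2 library 1 or 2, WT T2 library 1 or 2, KO T1 library 2 or WT T1 library 2 (-1.40 to -1.07), for Sdc1 without KO T2 library 1 or WT T2 library 1 (-2.01 to -1.85), for Slpi without KO T2 library 1 or 2, WT T2 library 1, KO T1 library 1 or 2 or WT T1 library 2 (-1.89 to -1.50) and for Txndc5 without KO T2 library 1 or 2 or WT T2 library 1 or 2 (-1.32 to -1.18). Of 24 genes of protein folding in the endoplasmic reticulum and its stress response, 2 were called lower, Xbp1 and Edem1 (2.88% over all genes). Edem1, which marks misfolded glycoproteins for degradation, had 48.8, 37.9, 49.3 and 39.9 RPKM in T2 against 96.6, 96.1, 79 and 85.5 RPKM in T1 (-1.02 ± 0.12), with T1 values that did not split by replicate, and its call was lost without KO T2 library 2, WT T2 library 2 or KO T1 library 1 or 2 (-0.99 to -0.92). The list had 0 calls without T1 replicate 2 and 5 lower without T1 replicate 1. Hsp90b1, the chaperone GRP94, had 117 to 131 RPKM in T2 against 165 to 292 RPKM in T1 (-0.83 ± 0.15), and the median of the 24 was -0.29.

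The immunoglobulin genes moved in the same libraries. Ighm had 4569, 4801, 4540.0 and 4806 RPKM in T2 against 15967, 35988, 11196 and 29337 RPKM in T1 (-2.16 ± 0.48), and it encodes a sort marker. Its call was lost without KO T2 library 1 or 2 or WT T2 library 1 or 2 (-2.21 to -2.10). Igkc, the kappa constant region, had 6861, 8324, 7108 and 7340.1 RPKM in T2 against 20519, 47436, 13442 and 43016 RPKM in T1 (-1.89 ± 0.56), wholly below T1 with an adjusted p of 0.0523 by limma that missed the threshold. Among the 117 immunoglobulin and T cell receptor genes called lower, T1 replicate 2 was above T1 replicate 1 in both genotypes for 93 (79.5%). It was above by a ratio over 2 in both genotypes, with 0.5 RPKM added to each value, for 49. Among the 214 other genes called lower, T1 replicate 2 was the higher in both genotypes for 52 (24.3%) and T1 replicate 1 for 125 (58.4%). Over all tested genes these shares were 26.6% and 33.7%. Among the 241 genes called higher, T1 replicate 2 was above T1 replicate 1 in both genotypes for 147 (61.0%), which places it nearer to T2, and below it for 22 (9.13%). The cause of the split between T1 replicates was not tested.

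**Figure D3:**
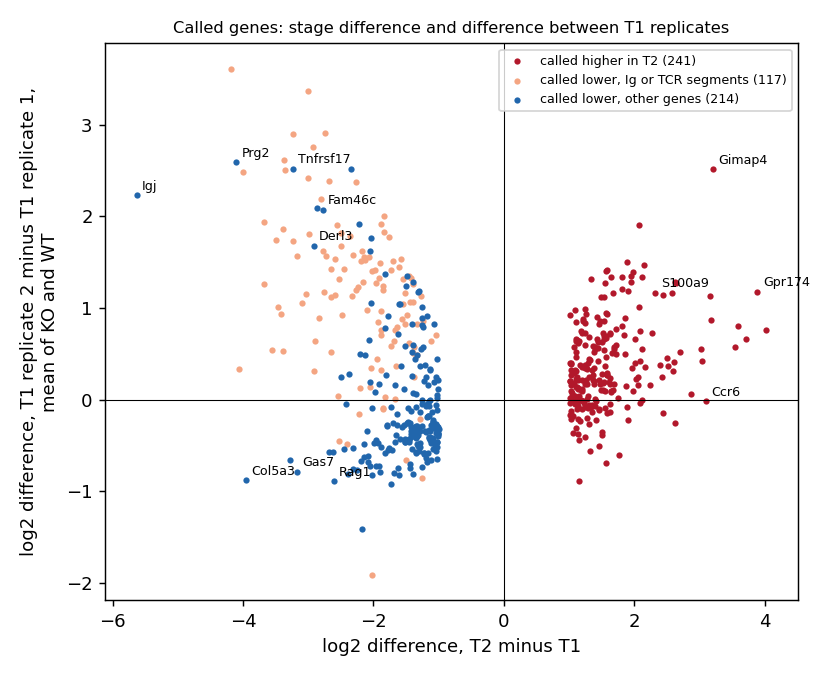
T1 replicate 2 minus T1 replicate 1 (vertical axis, mean of KO and WT) against T2 minus T1 (horizontal axis), both as log2(RPKM + 0.5) differences, for the called genes (points), with immunoglobulin and T cell receptor genes in their own colour. Most immunoglobulin genes (93 of 117) are higher in T1 replicate 2 in both genotypes, as are 147 of the 241 genes called higher, while 125 of the other 214 genes called lower are higher in T1 replicate 1.

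Genes of the translation machinery gave no call, while many had every T2 library above every T1 library. Of 76 tested cytosolic ribosomal protein genes 57 lay wholly above T1 (16.8% over all genes), 0 were called by limma and the median was 0.51, with members from 0.19 to 0.87. The median was 0.69 without T1 replicate 2, with 4 called higher, and 0.36 without T1 replicate 1. It was 0.43 with median-ratio scaling and 0.76 with quantile normalization, which called 5 of them. Rps27 had 3585, 5027, 3649 and 4400.0 RPKM in T2 against 1993, 2343, 2258 and 2483 RPKM in T1 (0.87 ± 0.23) and Rps24 had 1250.2 to 1492 RPKM in T2 against 644 to 928 RPKM in T1 (0.84 ± 0.18). Of 19 ribosome biogenesis genes 14 lay wholly above T1, with a median of 0.36, members from -0.02 to 0.91 and 0 called. By contrast, 63 oxidative phosphorylation genes had a median of 0.11 with 7 wholly above T1.

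Glucose transport and cholesterol genes gave a few calls. Slc2a3 (GLUT3) had 8, 9.7, 10.4 and 9.88 RPKM in T2 against 3.57, 4.1, 5.35 and 4.79 RPKM in T1 (1.02 ± 0.10), Slc2a6 had 3.29 to 5.58 RPKM in T2 against 0.53 to 1.94 RPKM in T1 (1.54 ± 0.33) and Aldoc, a glycolytic aldolase, had 1.07 to 2.38 RPKM in T2 against 0.171 to 0.361 RPKM in T1 (1.58 ± 0.25). These were the 3 calls among 22 tested glycolysis and glucose transport genes (2.09% called higher over all genes). With median-ratio scaling and with quantile normalization the list gave 2 calls. Sqle, an oxygenase of cholesterol synthesis, had 3.68 to 5.93 RPKM in T2 against 1.55 to 2.7 RPKM in T1 (1.16 ± 0.20). The list of 23 cholesterol genes held 2 calls (2.09% called higher over all genes), Sqle among them. Of its members 11 lay wholly above T1 (16.8% over all genes), with a list median of 0.40. Kcna3, the lymphocyte potassium channel Kv1.3, had 12.1, 14.8, 10.8 and 15.3 RPKM in T2 against 4.96, 7.11, 6.24 and 6.5 RPKM in T1 (1.03 ± 0.15). With 1 library left out calls were lost for Slc2a3 without KO T2 library 2 or KO T1 library 1 (0.95 to 0.97), for Slc2a6 without KO T2 library 2 or WT T2 library 2 (1.39 to 1.50) and for Kcna3 without KO T2 library 2, WT T2 library 2 or KO T1 library 1 (0.92 to 0.96).

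Interferon-stimulated, immediate early and heat shock genes gave 0 calls by limma among 29, 22 and 11 tested. The immediate early genes had no member whose stages lay apart, and their median of 0.52 was 1.1 without T1 replicate 2 and -0.07 without T1 replicate 1. The heat shock median of 0.23 was likewise 0.48 and -0.01, with 1 member called lower without T1 replicate 1. Of 13 p53 target genes 1 was called lower (2.88% over all genes). This was Trp53inp1, with 71.5, 45.3, 79.3 and 52.4 RPKM in T2 against 131, 132, 106 and 124 RPKM in T1 (-1.01 ± 0.19). Its call was lost without KO T2 library 2, WT T2 library 2 or KO T1 library 1 or 2 (-0.98 to -0.84).

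**Figure D4:**
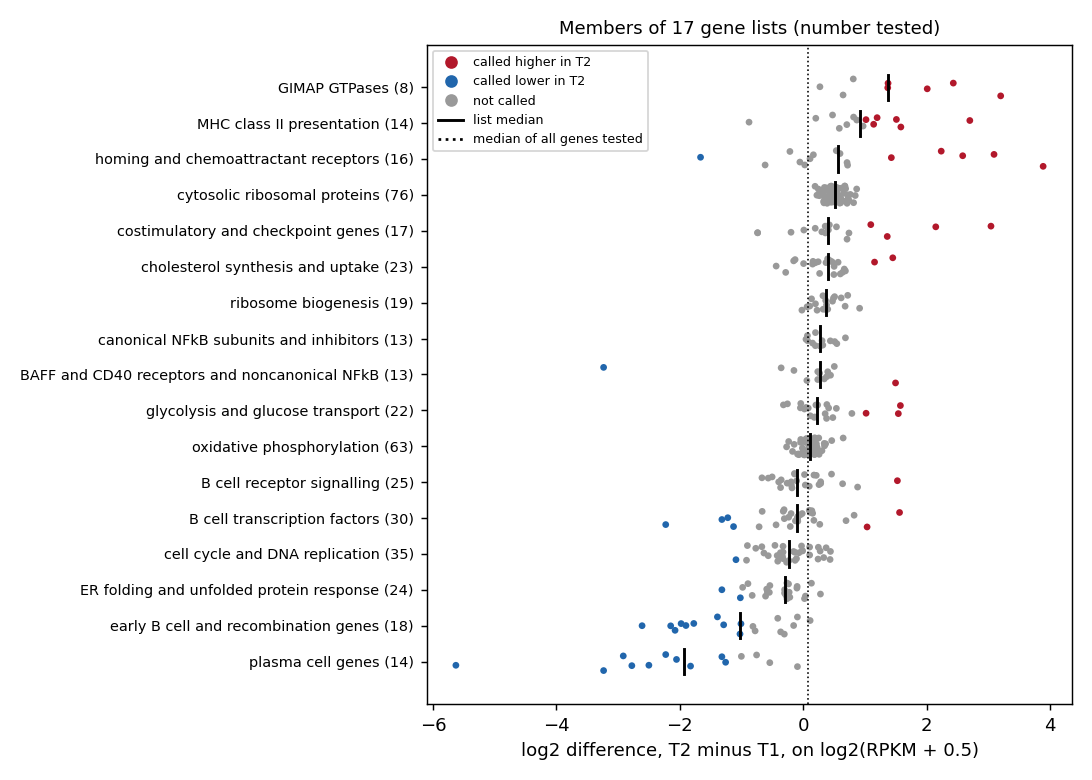
T2 minus T1 difference on the log2(RPKM + 0.5) scale for each tested member (point) of 17 gene lists, 1 line of points per list with vertical jitter, called members coloured and the list median as a black bar. GIMAP GTPases (median 1.37) and MHC class II genes (0.92) lie above 0 and plasma cell (-1.94) and early B-cell genes (-1.02) below it, with the median of all tested genes (0.08) as a dotted line.

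Markers of other cells were present at low level and some moved with the stage. Of 25 macrophage and monocyte markers, none at 0 in every library, 20 were tested. Among these 3 were called higher (C1qc, Cd5l and Spic) and 4 lay wholly above T1 (2.09% and 16.8% over all genes). Their summed level was 118, 249, 149 and 200 RPKM in T2 against 80.2, 244, 79.0 and 221 RPKM in T1, so the replicate 2 libraries were higher in both stages. C1qc, a complement chain of macrophages, had 1.34, 4.49, 2.24 and 2.78 RPKM in T2 against 0.185, 1.47, 0.0413 and 0.707 RPKM in T1 (1.64 ± 0.47), and Lyz2, lysozyme, had 22, 48.7, 14.9 and 33.9 RPKM in T2 against 2.55, 40.9, 2.08 and 9.37 RPKM in T1 (1.88 ± 0.82, adjusted p = 0.151, limma). Without the T1 replicate 2 libraries 11 markers were called higher, and without T1 replicate 1 there were 0 higher and 1 lower. The calls were lost with 1 library left out for C1qc without KO T2 library 2, WT T2 library 1 or 2, KO T1 library 1 or WT T1 library 1 or 2 (1.35 to 1.82), for Cd5l without KO T2 library 2, WT T2 library 1 or 2, KO T1 library 1 or WT T1 library 1 (1.00 to 1.28) and for Spic without KO T2 library 1 or 2, WT T2 library 1 or 2, KO T1 library 1 or WT T1 library 1 or 2 (0.93 to 1.24).

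Of 14 neutrophil markers, none at 0 in every library, 7 were tested and 2 were called higher (2.09% over all genes). These were S100a8 with 20.6, 23.2, 27.2 and 14.6 RPKM in T2 against 3.88, 22.1, 2.24 and 2.93 RPKM in T1 (1.95 ± 0.54) and S100a9 with 18.5, 29.8, 23.8 and 17.7 RPKM in T2 against 3.94, 20.6, 1.53 and 1.65 RPKM in T1 (2.32 ± 0.56). The summed level of the 14 markers was 57.1, 71.7, 64.3 and 40.3 RPKM in T2 against 11.96, 60.3, 5.37 and 6.18 RPKM in T1, and the KO T1 replicate 2 library overlapped T2. Both calls were lost with 1 library left out for S100a8 without KO T2 library 1 or 2, WT T2 library 1 or 2, KO T1 library 1 or WT T1 library 1 or 2 (1.62 to 2.15) and for S100a9 without KO T2 library 2, WT T2 library 1 or 2, KO T1 library 1 or WT T1 library 1 or 2 (2.04 to 2.39). Without T1 replicate 1 neither was called. Of 13 T-cell and 3 NK-cell markers 0 were called by limma with all 8 libraries, but without T1 replicate 2 4 T-cell and all 3 NK-cell markers were called higher (medians of 1.22 and 1.98). Without T1 replicate 1 the T-cell median was -0.21 with 1 marker called lower, and the NK-cell median was 0.17 with 0 called. The pan B-cell markers had 0 calls among 10, but 5 lay wholly below T1 and 1 wholly above (10.2% and 16.8% over all genes), with a median of -0.31. Ms4a1 (CD20) had 1014 to 1443 RPKM in T2 against 1648 to 2464 RPKM in T1 (-0.69 ± 0.22, adjusted p = 0.0657, limma). The part of these other cells in the genes that rose at T2 was not tested.

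The T2 against T1 change was also taken within each genotype, from a fit of all 8 libraries. KO and WT share the estimate of spread in that fit, so the calls of a genotype also rest on libraries of the other. In KO 100 genes were called higher and 121 lower, in WT 92 were called higher and 81 lower, and 76 and 66 were called in both. Fits of the libraries of 1 genotype alone called 7 higher and 5 lower in KO and 30 and 31 in WT. The difference of the change between KO and WT was called for 0 genes by limma, with 117 at an unadjusted p under 0.05, and limma-voom on recovered reads gave 0 with 46. The 4 genes with the smallest p for that difference were Igkv4-55, Trbd2, Gm25405 and Ighv5-12 (adjusted p = 0.99989 for each, limma). Ighv5-12 had 13.2 and 14.1 RPKM in KO T2 and 10.1 and 13.1 RPKM in WT T2, against 237 and 368 RPKM in KO T1 and 53.3 and 71.7 RPKM in WT T1. Igkv4-55 had 74.5 and 79.0 RPKM in KO T2 and 103 and 73.8 RPKM in WT T2, against 566 and 944 RPKM in KO T1 and 159 and 153 RPKM in WT T1. Both segments fell further in KO (-4.39 for Ighv5-12 and -3.24 for Igkv4-55) than in WT (-2.38 and -0.83), with KO above WT in T1. Gm25405 and Trbd2 rest on at most 19 and 3 reads in a library. A p that misses the threshold does not show that the genotypes change alike.

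The levels in the mature stages are given beside those of T1 and T2 as a description, since the comparisons share the T2 libraries. Of the 241 genes called higher, 67 (27.8%) had an FO mean over 2 times the MZ mean and 26 (10.8%) an MZ mean over 2 times the FO mean, against 4.04% and 4.62% of all tested genes. For these counts 0.5 RPKM was added to each mean. Fam101b had 5.38 to 12.7 RPKM in T2 against 0.0908 to 0.473 RPKM in T1, with 16.2 to 21.1 RPKM in FO and 0.74 to 1.67 RPKM in MZ. Crisp3 had 9.76 to 18.9 RPKM in FO and 0.366 to 0.843 RPKM in MZ, and Itgb7 had 113 to 124 RPKM in FO and 9.31 to 17.7 RPKM in MZ. In these 3 genes every T2 library was above every MZ library. Pglyrp2 had 15.3 to 20.3 RPKM in FO and 33 to 37.3 RPKM in MZ, Plaur had 51.9 to 79.5 RPKM in FO and 63.1 to 146 RPKM in MZ and Il9r had 21.1 to 41.2 RPKM in FO and 123 to 205 RPKM in MZ. For Pglyrp2 and Il9r every MZ library was above every T2 library, and for Plaur these overlapped.

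Of 10 tested genes associated with MZ B-cells, 4 had every T2 library below every T1 library (10.2% over all genes). Of these, 3 were called lower (2.88% over all genes). All 4 were highest in MZ, which a list of MZ-associated genes brings with it and is not a result. S1pr3 had 2.71 to 3.19 RPKM in FO and 101 to 126 RPKM in MZ, beside the T2 and T1 values given above. Plxnd1, a plexin receptor for semaphorins, had 4.27, 3.19, 4.59 and 3.5 RPKM in T2 against 9.98, 8.73, 10.1 and 8.76 RPKM in T1 (-1.18 ± 0.13), with 1.24 to 1.56 RPKM in FO and 54.4 to 69.5 RPKM in MZ. Myof, the membrane repair protein myoferlin, had 4.15, 3.62, 4.2 and 4.11 RPKM in T2 against 8.93, 8.38, 7.12 and 10.4 RPKM in T1 (-1.02 ± 0.12), with 3.95 to 4.39 RPKM in FO and 90.7 to 101 RPKM in MZ, and its call was lost without KO T2 library 2, KO T1 library 1 or WT T1 library 2 (-0.99 to -0.92). Cd1d1, which presents lipids to NKT-cells, had 26.6, 23.9, 23.6 and 23.8 RPKM in T2 against 35.5, 31.1, 31 and 29.9 RPKM in T1 (-0.37 ± 0.07), with 16 to 21.6 RPKM in FO and 179.8 to 275 RPKM in MZ. Cd1d1 did not reach a ratio of 2. The sort marker Cr2 was the 1 member called higher. Without T1 replicate 2 there were 2 members called lower, and without T1 replicate 1 there were 5. Among the falls, Akap12 had 6.25 to 8.43 RPKM in FO and 1.16 to 1.66 RPKM in MZ and Myb had 1.87 to 4.03 RPKM in FO and 2.54 to 3.53 RPKM in MZ, below T2 in each library of both mature stages.

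**Figure D5:**
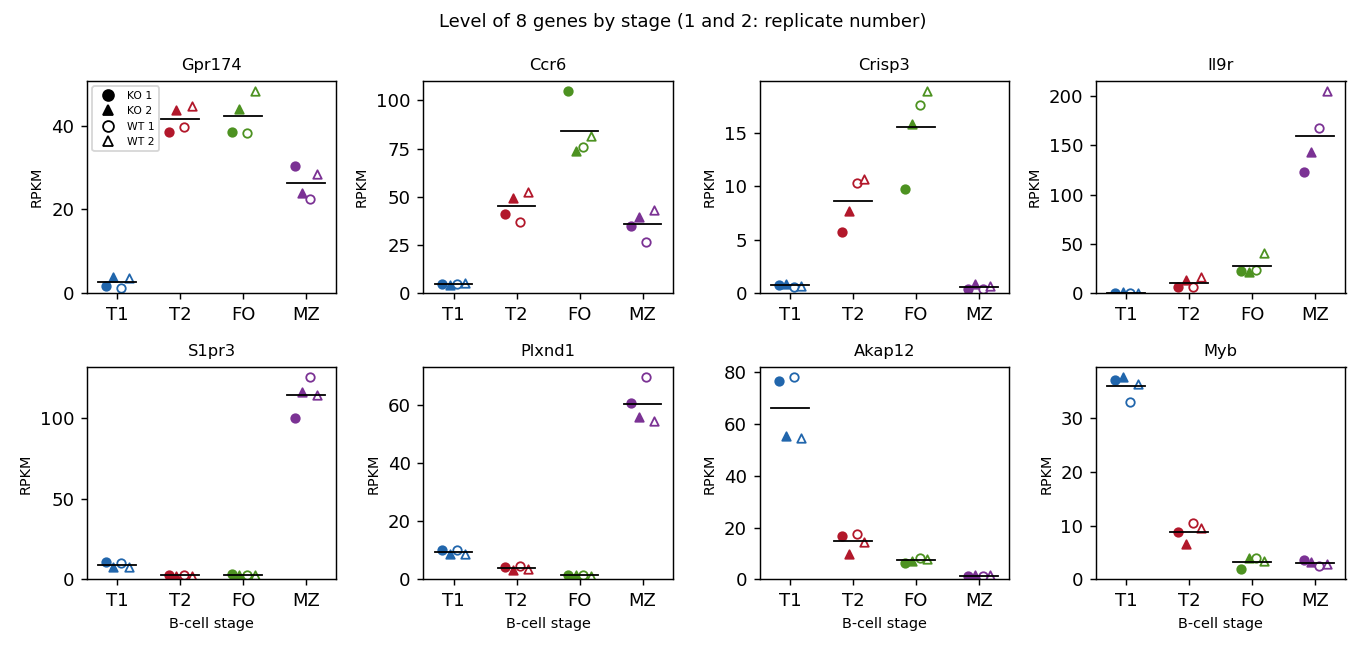
RPKM of 8 genes in T1, T2, FO and MZ B-cells, with 4 libraries per stage as points (filled for KO, open for WT) and the stage mean as a bar. Gpr174, Ccr6 and Crisp3 are low in T1 and higher from T2 on, with Crisp3 low again in MZ, Il9r is highest in MZ, S1pr3 and Plxnd1 are lower in T2 than in T1 and highest in MZ, and Akap12 and Myb are highest in T1.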

How the data were processed

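RNA-Seq was performed on sorted splenic B-cells with the TruSeq RNA kit V2 and single-end reads on a HiSeq 2000. The authors aligned reads to mm10 with TopHat, kept unique alignments, and computed the deposited RPKM values per gene with Perl scripts, with replicates kept apart. No source used here gives tool versions. All 16 columns matched a labelled sample. The deposited RPKM covered 38355 genes, of which 15161 were at 0 in every library. The other 23194 genes gave whole reads within 0.01 reads when divided by the value of 1 read, so a count-based alternative could be run. Coordinates are from GENCODE M21 (GRCm38).

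The 8 T2 and T1 libraries were fitted with limma 3.58.1 (R 4.3.3) on log2(RPKM + 0.5) (stage and genotype as terms, a trend of the variance), a two-sided test with Benjamini-Hochberg adjustment over 11504 genes. On this scale the change of low genes comes out too small. Calls required an adjusted p under 0.05, a ratio over 2 and a mean RPKM over 1 in either stage. Nothing states whether replicates came from separate sorts beyond their labels, so p-values measure the spread between these libraries. Precision is limited by 4 libraries per stage and by 9003343 to 14443131 reads per library.

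Tables and figures were made with Python 3.11.15, numpy 2.4.6, pandas 2.3.3 and matplotlib 3.10.9, and the fit was tested on simulated data. The comparison, its genes and the lists were chosen with earlier results of these data known, so lists are described by counts and medians and carry no test. Genes were named by a rule: the 12 largest rises and 12 largest falls with no overlap between stages and at least 10 reads in a library, without immunoglobulin and T cell receptor segments and sort marker genes, the 4 smallest p for the genotype difference, the 2 highest and 2 lowest tested members of each list, and the sort markers. A few genes that this rule names are not reported here. Other members of lists with values of their own were chosen after their values were seen. Alternatives were other pseudocounts (0.1 and 1), filters, scalings, library weights, fold criteria, a replicate block, all 16 libraries, limma-voom on recovered reads and leaving out each library. Leaving out all T1 libraries of a replicate number, and using 1 replicate number only, were chosen after seeing the data. The columns hold no comparison of the authors. Read counts used by the authors with DESeq and edgeR were not analysed here.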

Additional observations from a re-analysis of the deposited data

Results flagged for a closer look

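Each set of 4 libraries of a stage was checked for 1 library far from the others by Dixon's ratio of its gap to the whole range, for 364 sets over the genes and marker sums named in the text. Above the critical value for 4 samples were 9 sets, and chance alone gives about 1 in 20. In T2 these were Prg2 in WT replicate 1 (8.62 RPKM), Gimap9 in KO replicate 1 (79.5 RPKM), Cd1d1 in KO replicate 1 (26.6 RPKM) and Myof in KO replicate 2 (3.62 RPKM). In T1 they were Runx3 in KO replicate 1 (6.39 RPKM), Tlr3 in WT replicate 2 (0.0491 RPKM), S100a8 in KO replicate 2 (22.1 RPKM), S100a9 in KO replicate 2 (20.6 RPKM) and the summed neutrophil markers in KO replicate 2 (60.3 RPKM). The last 3 belong to 1 library and share reads of the same genes, so KO T1 replicate 2 held neutrophil transcripts at the T2 level while the other T1 libraries did not. Fewer sets stood out than the stated chance rate would give.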

How the results depend on the processing

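Of 91 called genes named in the text, 88 and 84 kept the call with pseudocounts of 0.1 and 1, 73 without a filter, 83 to 84 under the other scalings, 79 with library weights, 90 with all 16 libraries, 85 with limma-voom and 59 to 85 with 1 library left out. Fewer kept it with WT libraries alone (21), KO libraries alone (4) and at a ratio over 4 (38). Without T1 replicate 2 or 1 the call was kept by 77 and 69. None of the called genes changed direction. Without T1 replicate 2, Ccr9 (0.0075) and Cd80 (0.23) changed direction, as did Ccr9 with replicate 1 libraries only (0.14), and none of these was called. The cause was not tested.

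Genes called higher (241) numbered 153 at a mean RPKM over 5, 30 with WT and 7 with KO libraries alone, 1281 without a fold criterion, 43 at a ratio over 4, 370 without T1 replicate 2 and 181 to 287 with 1 library left out. Genes called lower (331) numbered 31 and 5 with WT and KO libraries alone, 838 without a fold criterion, 103 at a ratio over 4 and 241 to 360 with 1 library left out. With replicate 1 libraries only there were 287 higher and 273 lower calls, and with replicate 2 libraries only 282 and 491. The part of the number of libraries in these counts was not tested. The genotype difference gave 1 call without T1 replicate 1 and 0 with any 1 library left out. List members called higher (45) numbered 10 and 3 with WT and KO libraries alone, 146 without a fold criterion, 15 at a ratio over 4, 74 without T1 replicate 2 and 28 to 58 with 1 library left out. Those called lower (35) numbered 3, 0, 79 and 12 in the first 4 of these, 64 without T1 replicate 1, 66 with replicate 2 libraries only and 22 to 40 with 1 library left out.

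Replicate numbers shared between groups carry no stated pairing. Deviations of same-numbered libraries correlated at 0.425 between KO T2 and KO T1, 0.312 between KO T1 and WT T1, 0.177 between KO T2 and WT T2, 0.14 between WT T2 and WT T1, 0.0923 between WT T2 and KO T1 and 0.05 between KO T2 and WT T1. With the replicate block 284 genes were called higher and 370 lower, including 240 of the 241 and all 331 called without it, and with the block within genotype there were 289 and 370. Within KO (100 higher, 121 lower) the block gave 175 and 227 calls and the block within genotype 166 and 190, and within WT (92 and 81) the block gave 187 and 175 and the block within genotype 169 and 144.

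Within KO there were 44 higher and 32 lower calls without a filter, 219 and 326 with all 16 libraries, 31 and 61 at a ratio over 4, 175 higher without a fold criterion, 202 lower with library weights, 240 lower without T1 replicate 1, and 1 to 108 higher and 4 to 141 lower with 1 library left out. Within WT there were 31 and 13 without a filter, 253 and 269 with all 16 libraries, 29 and 35 at a ratio over 4, 124 lower with library weights, 59 higher and 181 lower without T1 replicate 1, and 0 to 88 higher and 0 to 80 lower with 1 library left out. The part of depth in the lost calls was not tested.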

Other observations

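Cytokine genes of the TNF family outside the lists rose at T2, chosen here after their values were seen. Lta, which encodes lymphotoxin alpha and is needed for lymphoid tissue structure, had 28.8, 32, 25.9 and 37.9 RPKM in T2 against 4.98, 5.56, 4.5 and 7.12 RPKM in T1 (2.39 ± 0.16, adjusted p = 0.000307, limma). Tnf had 9.4, 10.1, 8.34 and 9.23 RPKM in T2 against 2.62, 1.73, 1.31 and 2.41 RPKM in T1 (1.98 ± 0.17). No T1 library reached the lowest T2 library of either gene.

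Some genes of a B1 cell list were high in the T1 replicate 2 libraries alone. Ctla4 had 0.322, 1.04, 0.334 and 0.473 RPKM in T2 against 0.73, 8.38, 0.376 and 9.5 RPKM in T1 (-1.64 ± 0.84, adjusted p = 0.213, limma). Without T1 replicate 2 its difference was -0.05, and without T1 replicate 1 it was -3.23. Among 8 tested B1 markers, Sox5, a transcription factor, had 0.255, 0.119, 0.394 and 0.0766 RPKM in T2 against 1.74, 0.891, 2.21 and 1.05 RPKM in T1 (-1.44 ± 0.30), with T1 replicate 1 the higher. Bhlhe41, a factor of B1 cell maintenance, had 5.11, 4.43, 14.2 and 6.39 RPKM in T2 against 7.25, 18.8, 26.3 and 22.7 RPKM in T1 (-1.26 ± 0.32), with overlap between stages. Cd9, a tetraspanin of MZ and B1 cells, had 1.91, 2.12, 1.52 and 1.33 RPKM in T2 against 2.37, 6.1, 1.48 and 6.79 RPKM in T1 (-0.89 ± 0.42), and Ccr9, a gut-homing chemokine receptor, had 0.759, 0.558, 0.919 and 0.685 RPKM in T2 against 0.759, 2.31, 0.676 and 2.49 RPKM in T1 (-0.62 ± 0.36), both high in T1 replicate 2 alone. The list median of -0.72 was 0.05 without T1 replicate 2 and -1.40 without T1 replicate 1. The calls on these markers were lost with 1 library left out for Sox5 without WT T1 library 1 (-1.26) and for Bhlhe41 without KO T2 library 1 or 2, WT T2 library 2, KO T1 library 2 or WT T1 library 1 or 2 (-1.31 to -1.01).

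Other listed genes had values near the edge of a call. Pacsin1, counted with dendritic cell markers because plasmacytoid cells express it, had 2.28, 3.64, 2.14 and 4.27 RPKM in T2 against 0.275, 1.56, 0.147 and 1.24 RPKM in T1 (1.58 ± 0.43), a call lost on leaving out 1 library at a time, without KO T2 library 1 or 2, WT T2 library 1 or 2, KO T1 library 1 or WT T1 library 1 (1.27 to 1.73). The kinase genes Pim2 (-0.65 ± 0.11) and Pim1 (-0.60 ± 0.28), which promote survival, were not called, with Pim2 wholly below T1. Tlr12 had 1.75 to 3.59 RPKM in T2 against 4.28 to 7.56 RPKM in T1 (-0.96 ± 0.25), wholly below T1.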
